A study of Rattus norvegicus with 3 samples.

Results

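The potassium channel genes of the rat brain were described across gated cell classes and across an immune challenge. All genes whose symbol begins with Kcn were taken, which gave 89 symbols among 30560 features, and 75 of them had at least 30 unique molecular identifiers (UMIs, counted RNA molecules) over the 3 libraries. Nuclei came from whole brains of wild-type female Crl:CD(SD) rats aged 12 weeks, an outbred stock. The animals had received, by intraperitoneal injection 7 hours earlier, lipopolysaccharide (LPS, a bacterial cell wall component) at 5 mg/kg, poly(I:C) (a synthetic RNA duplex) at 12 mg/kg, or saline. Nuclei of 4 animals were pooled per treatment into 1 library each, so the treatments have no replicate, no p-value was computed, and every interval below is a 95% interval that covers counting error only. The other 14 members had between 0 and 25 UMIs over the libraries and were counted but not compared, among them Kcna7 and Kcne5 at 0, which allows each up to 0.101 CPM (UMIs scaled to a total of 1000000) in the LPS library.

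Potassium channels let potassium leave or enter a cell along its gradient, and in neurons they set the resting potential, end the action potential and space the spikes. Voltage-gated (Kv) channels open on depolarisation, calcium-activated channels (BK and SK) open when calcium enters, inward rectifiers (Kir) hold the resting potential and take up potassium in glia and vessels, and K2P channels carry background current. Most pores are built of subunits of 1 family, whereas silent subunits (Kcnf, Kcng, Kcns and Kcnv) join those of Kv2. Accessory proteins (KChIP, Kv beta, BK beta and Kcne subunits) alter the gating and transport of channels.

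The LPS library held 11211 barcodes and 29763787 UMIs, the poly(I:C) library 15001 barcodes and 21340578 UMIs, and the saline library 25435 barcodes and 35532360 UMIs. Depth differed, with a median of 2436 UMIs per barcode after LPS, 1264 after poly(I:C) and 1165 after saline. Nuclei were put into classes by UMIs of marker genes, none of them a Kcn gene. The gates took 6490 LPS, 5209 poly(I:C) and 8446 saline nuclei, of which 966, 203 and 540 were non-neuronal. Non-neuronal nuclei therefore made up 9.21% of the kept LPS nuclei, 1.55% of the poly(I:C) nuclei and 2.53% of the saline nuclei. The LPS and saline libraries shared 420 barcodes, poly(I:C) and saline 550, and LPS and poly(I:C) 247. Of the markers listed for endothelial nuclei, 9 of 12 had a symbol in the feature table, and all 10 did for oligodendrocytes. A class of interneurons gated by Ank1, Btbd11, Syt2, Adamts5 and Unc5b, genes of fast-spiking cells, is called Syt2/Btbd11 interneurons here. Class sizes ran from 51 nuclei (deep Ntng2/Rxfp1 neurons) to 1852 (Foxp2 layer-6 type neurons) in the compared classes of the LPS library.

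The sequences just upstream of Kcnip2 and Kcnj2 are shown because these genes were higher after LPS in the comparisons below. They are the 250 bases before the annotated start from RefSeq on the rat build GRCr8, which is not the build of the counts (mRatBN7.2). Kcnip2 is at chr1:254613899-254614148 on the minus strand and Kcnj2 at chr10:96559975-96560224 on the plus strand, and capitals mark CG dinucleotides.
Kcnip2: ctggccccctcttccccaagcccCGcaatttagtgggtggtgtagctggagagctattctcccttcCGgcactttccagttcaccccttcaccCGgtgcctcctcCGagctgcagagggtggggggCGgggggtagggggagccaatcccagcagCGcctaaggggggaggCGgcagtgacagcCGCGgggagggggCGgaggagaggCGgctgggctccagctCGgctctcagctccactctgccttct
Kcnj2: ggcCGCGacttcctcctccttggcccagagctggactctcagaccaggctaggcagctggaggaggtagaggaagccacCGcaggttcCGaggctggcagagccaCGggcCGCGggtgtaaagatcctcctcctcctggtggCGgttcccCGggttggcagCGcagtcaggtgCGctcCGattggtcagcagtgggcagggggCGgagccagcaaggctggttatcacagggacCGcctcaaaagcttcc
The Kcnip2 window holds 12 CG and the Kcnj2 window 14. Over the 61 members with such a sequence the median was 12 CG, against 5 over all 33469 promoters of the table.

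Most pairs of a potassium channel gene and a cell class that stood out in the saline library also stood out in the treated libraries. In each class with at least 50 nuclei, members with at least 30 UMIs in the class were measured. Such a member counted as class-marking when its CPM there was at least 2 times the unweighted mean over the other classes of that size. Classes of 1 library share that library and its free RNA, and no test was made between them. In the saline library 48 of 338 pairs of a member and a class met this rule over 13 classes (14.2%, against 5.43% of all pairs of a gene and a class). Among 11 classes with 50 nuclei in every library, 46 saline pairs met it. Of these, 36 (78.3%) were at least 2-fold in the LPS library and 37 (80.4%) in the poly(I:C) library. No UMI minimum was asked for in this repeat. Some of the poly(I:C) pairs had under 30 UMIs, such as Kcna1 (13) and Kcna6 (15) in oligodendrocytes. Of all genes' saline pairs, 83.5% were at least 2-fold in the LPS library and 78.5% in the poly(I:C) library. The ratio was above 1 for 45 of the 46 pairs in each of these libraries. The exceptions were Kcnmb4 in Rorb neurons, at 0.742 in the LPS library, and Kcne2 in somatostatin (Sst) interneurons, at 0.875 in the poly(I:C) library.

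**Figure D1:**
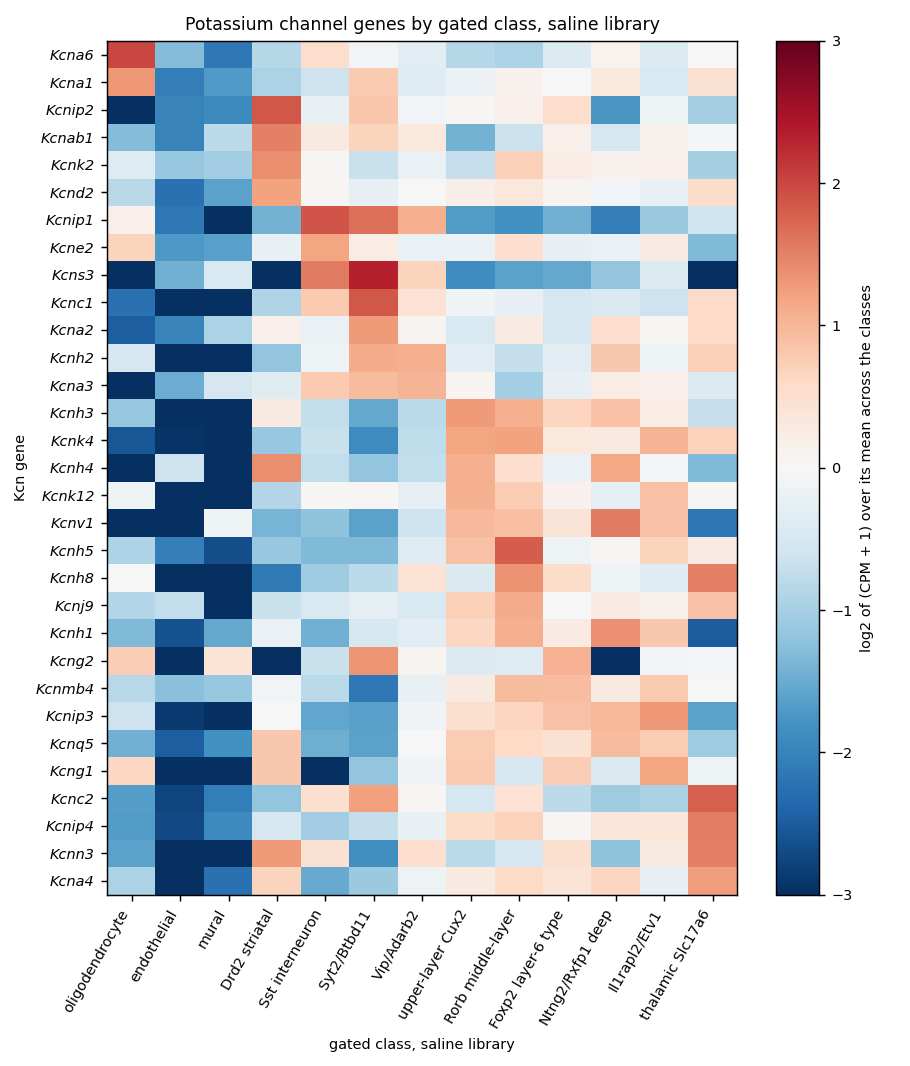
Each row is a class-marking Kcn gene and each column a gated class of the saline library, coloured by log2 of CPM + 1 over the gene's mean across the classes. Kcna6 and Kcna1 are reddest in oligodendrocytes, Kcnip2 in Drd2 striatal neurons, Kcns3 and Kcnc1 in Syt2/Btbd11 interneurons and Kcnc2 in thalamic neurons, and most rows are blue in endothelial and mural nuclei.

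Syt2/Btbd11 interneurons carried Kcnc1, a Kv3 gene whose fast channels end short spikes. It was at 495 CPM in LPS, 567 CPM in poly(I:C) and 514 CPM in saline nuclei of this class, and the saline level was 4.66 times the mean of the other classes. The order of classes for Kcnc1 was clear, since in the LPS library the next class, Sst interneurons, was at 250 CPM and the intervals did not overlap. Kcns3, a silent subunit that modifies Kv2 channels, stood out most, at 103 CPM after LPS, 167 CPM after poly(I:C) and 85.3 CPM after saline. That was 8.31 times the mean of the other classes in the saline library. In all, 7 of the 28 members with 30 saline UMIs in the class were class-marking there, against 6.08% of all genes measured in it.

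Kcnip1, a KChIP that binds Kv4 channels, marked the interneurons as a group. Its level in Sst interneurons was 545 CPM in the LPS, 538 CPM in the poly(I:C) and 622 CPM in the saline library. In Syt2/Btbd11 interneurons it was 637, 665 and 529 CPM in that order, so these interneuron classes were not in a fixed order. Vip/Adarb2 interneurons also met the rule for Kcnip1 in the saline library, at 2.31 times the other classes, beside Kcnh2, an ERG-type channel, at 2.49 times and Kcna3, a Kv1 channel, at 2.28 times. Of the members measured there 3 of 43 were class-marking, against 1.95% of all genes, and for Sst interneurons it was 2 of 16, against 8.03%.

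Drd2 striatal neurons are the projection neurons of the indirect pathway. Among genes of the fast transient (A-type) current, Kcnd2 and Kcnip2 were class-marking there in the saline library. The other Kv4 pore Kcnd3 and the abundant KChIP Kcnip4 were not. Kcnd2, a Kv4 pore, was at 6852 CPM in LPS, 6522 CPM in poly(I:C) and 5801 CPM in saline nuclei, and its auxiliary Kcnip2 was at 262, 242 and 168 CPM. Kcnab1, a Kv beta subunit that speeds inactivation of Kv1 channels, was at 2081, 2135 and 1597 CPM, and the background channel Kcnk2 (TREK type) at 299, 281 and 252 CPM, each given for LPS, poly(I:C) and saline. Kcnd2, Kcnip2, Kcnab1 and Kcnk2 were 2.58 to 4.72 times the mean of the other classes in the saline library. They were the 4 class-marking members among 15 measured, against 10% of all genes. Drd1 striatal neurons, the other striatal projection class, had 40, 24 and 39 nuclei in that order and were outside this mean. Their summed Kv4 genes were at 4758, 5895 and 4166 CPM, against 7028, 6674 and 6148 CPM in Drd2 neurons. Over all gated neurons the Kv4 genes were at 3054, 2937 and 2965 CPM, so a raised Kv4 level was not particular to Drd2 neurons.

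Thalamic neurons, gated by Slc17a6 and thalamic marker genes, had the highest summed Kcn level of the compared classes. It was at 47421 CPM after LPS, 48272 CPM after poly(I:C) and 49435 CPM after saline. Most of that sum was Kcnip4, a KChIP, at 28585 CPM after LPS, 28975 CPM after poly(I:C) and 31292 CPM after saline. Kcnc2, a Kv3 channel, was at 5379, 4864 and 3881 CPM in that order and was 4.37 times the other classes in saline nuclei. Kcnn3, an SK channel that follows spikes with a calcium-dependent pause, was at 119, 158 and 135 CPM. Kcnh8 and Kcna4 were class-marking there too, and in all 6 of 26 members were, against 8.17% of all genes.

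EAG-type genes (Kcnh) encode voltage-gated channels. They were among the class-marking members in 3 of the 5 excitatory classes other than the thalamic one in the saline library. Over its 13 classes, 0 were in the Foxp2 layer-6 type and Il1rapl2/Etv1 classes. Over the 11 classes compared in every library, however, Kcnh1 met the rule in the Il1rapl2/Etv1 class. It was at 2.21 times the others after LPS, 2.20 times after poly(I:C) and 2.13 times after saline. Kcnh3 was at 2.05 times in the layer-6 type class after poly(I:C). Kcnh5 in the Rorb middle-layer class was at 1012 CPM after LPS, 852 CPM after poly(I:C) and 780 CPM after saline, and was 4.44 times the other classes in saline nuclei. Kcnh8 was class-marking in Rorb neurons at 3.02 times, and more so in thalamic neurons at 3.48 times. Kcnh1 was high in the Rorb class and in the deep Ntng2/Rxfp1 class, at 2.32 and 2.98 times the others, and Kcnh3 and Kcnh4 marked the upper-layer Cux2 class at 2.85 and 2.39 times. The background channel Kcnk4 was class-marking in the upper-layer, Rorb and Il1rapl2/Etv1 classes, at 2.59, 2.66 and 2.26 times. Thus 8 of 33 members were class-marking in Rorb neurons, against 2.45% of all genes, and 6 of 40 in upper-layer neurons, against 2.06%. For the Foxp2 layer-6 type class it was 3 of 56, against 1.78%, led by the silent subunit Kcng2. In the Il1rapl2/Etv1 class 5 of 45 met the rule, against 1.43%, led by Kcnip3, a KChIP, and in the Ntng2/Rxfp1 class 2 of 15 did, against 7.13%.

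In oligodendrocytes, the myelinating cells, the Kv1 genes Kcna6 and Kcna1 were class-marking, whereas Kcna2 and Kcna3 had 1 and 0 saline UMIs. Kcna6 was at 273 CPM after LPS, 256 CPM after poly(I:C) and 218 CPM after saline, and Kcna1 at 363, 222 and 284 CPM in that order. Kcna6 was 5.41 times and Kcna1 2.83 times the mean of the other classes in the saline library. Oligodendrocytes were the lowest of the 13 saline classes for Kcna2, with 1 UMI (7.27 CPM), and for Kcna3, with 0. At this depth the 0 of Kcna3 allows a level as high as that over gated saline neurons (18.5 CPM). The 2 class-marking genes were 2 of 11 members measured there, a smaller share than the 30.1% of all genes. In endothelial nuclei 0 of 6 and in mural nuclei 0 of 4 members with 30 UMIs met the rule in the saline library, against 49.3% and 52.2% of all genes.

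Some members with few UMIs were found in glia, vessels or choroid plexus, and those given next were chosen after their values were seen. Other rare members had most of their UMIs in neurons, but the neuronal pool was larger. In the LPS library gated neurons held 19073061 UMIs of all genes and non-neuronal nuclei 1063932. The K2P gene Kcnk9 had 339 UMIs in these neurons (17.8 CPM) and 0 in non-neuronal nuclei, and Kcnk3 had 146 (7.66 CPM) and 2 (1.88 CPM). Kcnj4 had 110 (5.77 CPM) and 4 (3.76 CPM), too few to tell its levels apart. The LPS library had the most glial nuclei, whereas the saline library had the most endothelial (130 after LPS, 184 after saline) and mural nuclei (30 after LPS, 80 after saline). Kcnj10, the Kir channel by which astrocytes and oligodendrocytes clear potassium, had 12 UMIs in 154 LPS astrocytes (87.0 CPM), 6 in 61 oligodendrocyte precursors (110 CPM) and 47 in 386 oligodendrocytes (106 CPM), against 2.81 CPM in layer-6 type neurons. The glial intervals overlapped one another, so their order is not set at this depth. Oligodendrocyte precursors also led in Kcnip3 (15 UMIs, 274 CPM) and in the EAG-type Kcnh8 (12 UMIs, 219 CPM) in the LPS library. The next classes were at 106 CPM for Kcnip3 (Il1rapl2/Etv1 neurons) and 62.6 CPM for Kcnh8 (Rorb neurons), and the intervals did not overlap. Kcnj16, which pairs with Kcnj10, had 2 UMIs in LPS astrocytes and 36 over all libraries, too few to place. Kcnj8, the pore of the vascular ATP-sensitive channel, had 16 UMIs in LPS endothelial nuclei (106 CPM), 9 in poly(I:C) (112 CPM) and 14 in saline ones (74.4 CPM). In Vip/Adarb2 interneurons Kcnj8 had 0 UMIs in the LPS library, which allows up to 1.35 CPM.

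Kcnj2, an inward rectifier of vessels and neurons, was at 73.1 CPM in LPS and 53.1 CPM in saline endothelial nuclei, from 11 and 10 UMIs, with 0 in the 76 poly(I:C) ones. Kcnj13, a Kir channel of transporting epithelia, had 6 UMIs in 31 choroid plexus nuclei of the LPS library (204 CPM, interval 74.9 to 444) and 2 in 21 of the saline library. The K2P gene Kcnk13, a microglial channel, had 9 UMIs in 33 microglia or macrophages of the LPS library (257 CPM, interval 118 to 489). Neurons held it too, at 53.4 CPM in thalamic neurons (38 UMIs), 34.4 CPM in Sst interneurons and 11.7 CPM in layer-6 type neurons of that library, and over all gated neurons and all non-neuronal nuclei it was at 18.4 and 18.8 CPM. Kcne2, an accessory subunit known from choroid plexus, was highest in astrocytes at 268 CPM and second in oligodendrocytes at 135 CPM among the 16 classes with 50 nuclei in the LPS library, and their intervals did not overlap. Choroid plexus was too small to be ranked, with 2 UMIs in 31 LPS nuclei (68.0 CPM, interval 8.24 to 246). The highest class differed between libraries, since it was Rorb neurons after poly(I:C) (127 CPM) and Sst interneurons after saline (167 CPM), where astrocytes had under 50 nuclei.

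**Figure D2:**
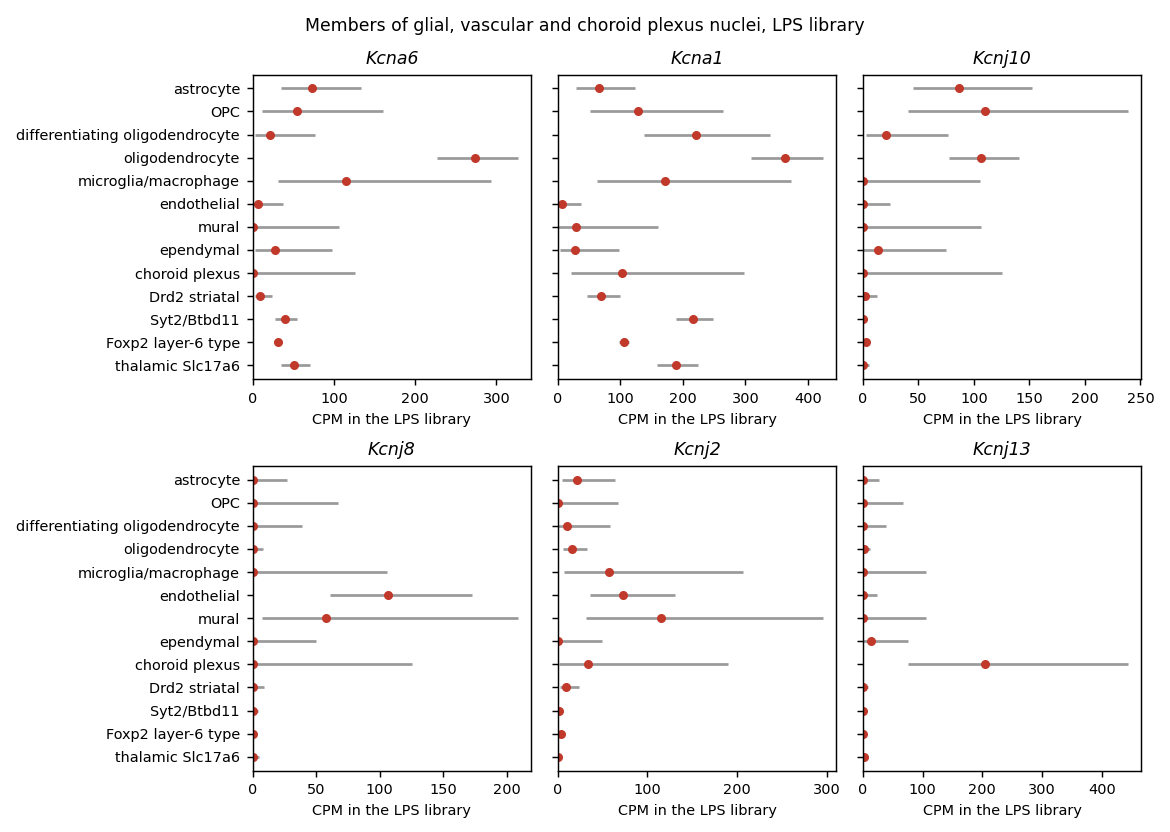
Points are CPM of 6 members (chosen after their values were seen) in 13 gated classes of the LPS library, and bars are exact 95% Poisson intervals. Kcna6 and Kcna1 peak in oligodendrocytes, Kcnj10 is seen in astrocytes, precursors and oligodendrocytes, Kcnj8 in endothelial and mural nuclei and Kcnj13 in choroid plexus, where the class holds 31 nuclei.

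Over all barcodes, LPS and saline differed little in the Kcn genes. Of 74 members with 30 UMIs over both libraries, 2 were at least 1.5-fold higher after LPS with an interval excluding 1 (2.7% of members, against 3.97% of all 15510 genes) and 3 were as much lower (4.05%, against 2.93%). The median log2 ratio was -0.07 over the members and -0.03 over all genes. A ratio between 0.8 and 1.25 was found for 85.1% of the members, against 79.5% of all genes. In such sums over all barcodes, fewer cells of a type and less RNA per cell cannot be told apart.

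The higher members were Kcnj2 and Kcng4. Kcnj2 had 193 UMIs (6.48 CPM) after LPS and 150 UMIs (4.22 CPM) after saline, a ratio of 1.54 (1.23 to 1.91), whereas poly(I:C) gave 4.36 CPM. It was higher also over gated neurons alone, at 5.09 CPM after LPS against 3.06 CPM after saline (ratio 1.66, 1.16 to 2.41). Kcng4, a silent subunit of Kv2 channels, had 25 UMIs after LPS and 12 after saline, a ratio of 2.49 (1.20 to 5.43), and among barcodes of 1000 to 3000 UMIs the ratio was 1.04. Without nuclei called doublets, neither gene met the size rule.

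The lower members were a Kir pair and a silent subunit. Kcnj5, a G protein-gated Kir channel, had 17 UMIs after LPS and 38 after saline, a ratio of 0.534 (0.283 to 0.969). Kcnj8 had 41 and 75 UMIs, a ratio of 0.653 (0.435 to 0.967), but 1.36 among barcodes of 1000 to 3000 UMIs. The Kcnj8 levels within endothelial nuclei, given above, were not lower after LPS, and mural nuclei were 30 of the kept LPS nuclei and 80 of the saline ones. Endothelial nuclei also held mural marker RNA, at 2631 CPM after LPS and 2827 CPM after saline. Over all non-neuronal nuclei Kcnj8 was lower after LPS, at 18 UMIs against 23 (ratio 0.410, 0.208 to 0.794), in pools of a different mix of classes. The part of level and of cell numbers was not tested. In gated neurons, Kcnj8 had 2 UMIs after LPS and 11 after saline. Kcnf1, a silent partner of Kv2, had 86 and 155 UMIs, a ratio of 0.662 (0.503 to 0.868).

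Poly(I:C) and saline differed as little. Of 71 members tested, 0 were at least 1.5-fold higher, against 2.84% of all 15197 genes, and 2 were as much lower (2.82%, against 5.58%). The median log2 ratio was -0.06 over members and -0.09 over all genes. Kcnf1 was the lower member here too, with 47 UMIs after poly(I:C) against 155 after saline, a ratio of 0.505 (0.356 to 0.704). Kcnn1, an SK channel, had 48 UMIs after poly(I:C) against 143, a ratio of 0.559 (0.394 to 0.780), and 100 UMIs after LPS. Both treatments were set against the same saline library, so a low or high value in it enters both ratios.

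**Figure D3:**
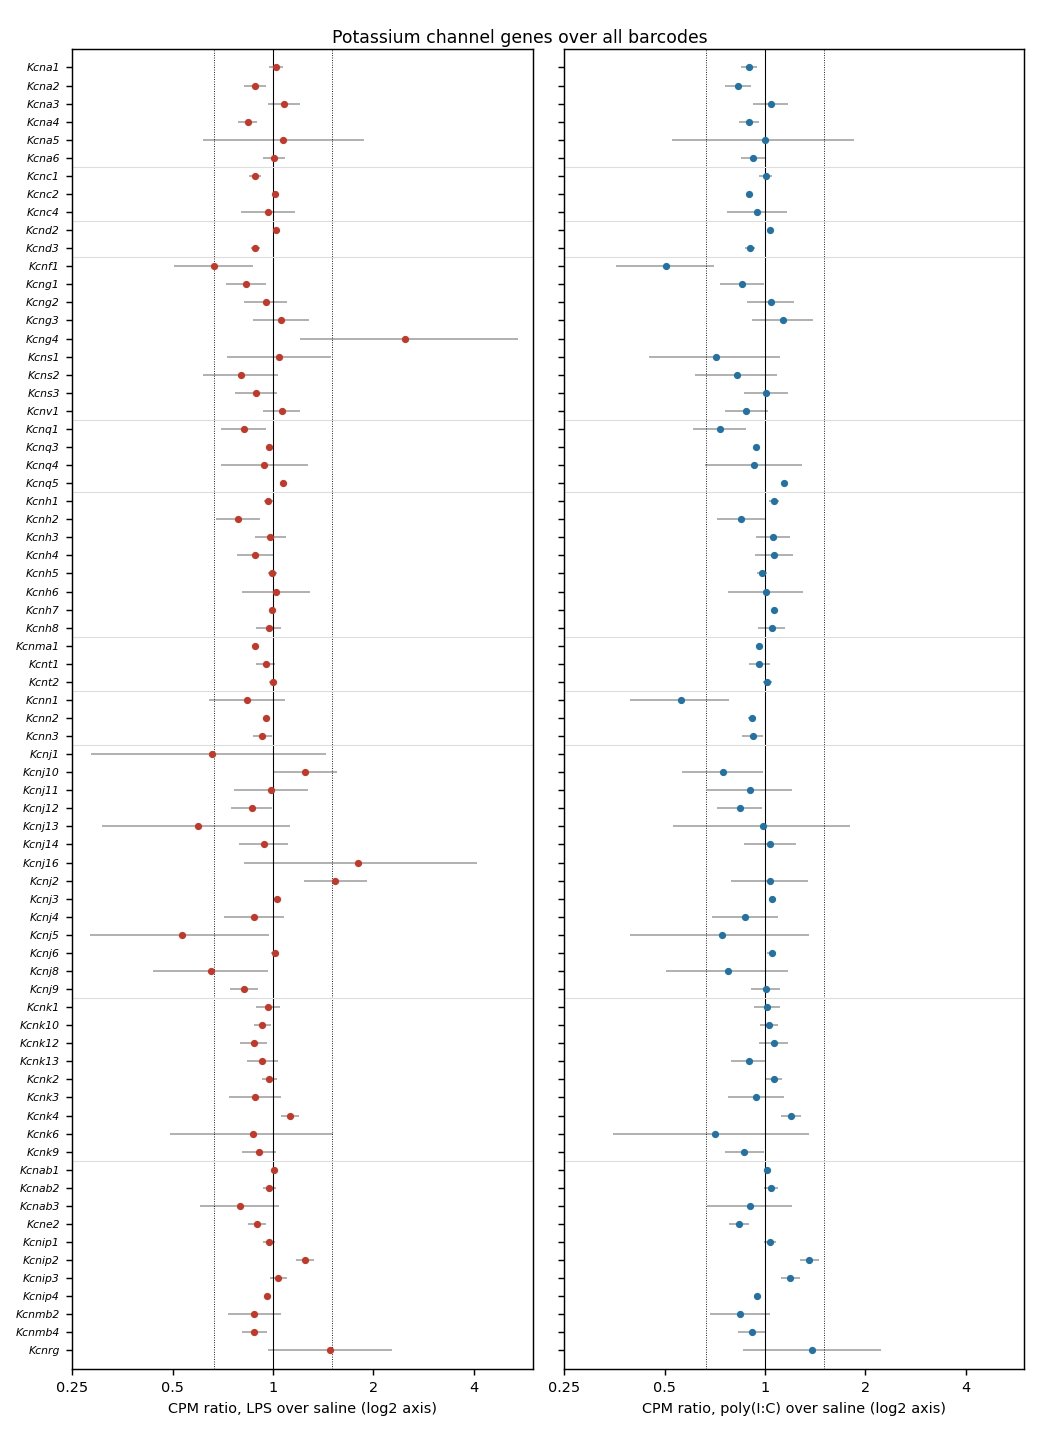
Points are CPM ratios of LPS over saline (left) and poly(I:C) over saline (right) for Kcn genes with 30 UMIs, ordered by family on a log2 axis, and bars are exact 95% counting intervals; dotted lines mark 1.5-fold. Most points lie close to 1, and Kcnip2 lies right of 1 in both panels at 1.25 and 1.36.

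LPS against poly(I:C), which does not use the saline library, gave 1 member higher and 0 lower of 72, against 4.65% and 1.99% of all 14993 genes. The higher one was Kcnj10, with 179 UMIs after LPS (6.01 CPM) and 77 after poly(I:C) (3.61 CPM), a ratio of 1.67 (1.27 to 2.21). The saline library stood between them at 4.81 CPM. Astrocytes and oligodendrocytes, which carry Kcnj10, were 154 and 386 nuclei in the LPS library and 9 and 55 in the poly(I:C) library, and in gated neurons alone the ratio was 0.869. The part of these numbers of nuclei in the result was not tested.

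By family, median log2 ratios to saline ran from -0.21 to 0.07. The largest shifts of a family median against saline were -0.14 in log2 for the Kir genes after LPS and -0.21 for the silent subunits after poly(I:C). The summed CPM of the Kv4 pores was 2995 after LPS, 3027 after poly(I:C) and 2971 after saline, and that of the Kv7 genes, which carry the M-current that limits repetitive firing, 3378, 3472 and 3266. Of the Kv7 genes, Kcnq5 was at 2163 CPM after LPS and 2295 CPM after poly(I:C), against 2014 CPM after saline, ratios of 1.07 and 1.14. Kcnq3 was at 1203, 1166 and 1238 CPM in that order. The EAG-type genes (Kcnh) ran from a ratio of 0.787 (Kcnh2) to 1.02 (Kcnh6) after LPS and from 0.848 (Kcnh2) to 1.06 (Kcnh4) after poly(I:C). The K2P genes ran from 0.868 (Kcnk6) to 1.12 (Kcnk4) after LPS and from 0.706 to 1.20 for the same genes after poly(I:C). The Kv1 genes ran from 0.839 (Kcna4) to 1.08 (Kcna3) after LPS and from 0.832 (Kcna2) to 1.04 (Kcna3) after poly(I:C). Kcnrg, which encodes a regulator of Kv assembly, was the highest accessory member at ratios of 1.48 and 1.39, from 52, 35 and 42 UMIs after LPS, poly(I:C) and saline, with intervals that included 1. The SK genes summed to 414, 397 and 436 CPM, and Kcnma1 with the other Slo genes to 2073, 2223 and 2300 CPM.

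Well-known channels with no change in size past the rule are given by their levels. Of the G protein-gated Kir genes, which slow firing when transmitter receptors act, Kcnj3 was at 675 CPM after LPS and 692 CPM after poly(I:C), against 658 CPM after saline. Kcnj6 was at 302, 313 and 299 CPM in that order. Kcnj4, a strong inward rectifier, was at 5.54, 5.53 and 6.33 CPM, and Kcnj11, the pore of the neuronal ATP-sensitive channel, at 3.80, 3.47 and 3.86 CPM. None of these 4 Kir genes had a ratio to saline outside 0.87 to 1.052. Of the K2P genes, Kcnk1 was at 33.3 CPM after LPS, 35.0 CPM after poly(I:C) and 34.5 CPM after saline, and Kcnk6 had 24, 14 and 33 UMIs. The Kv1 pore Kcna2, a channel of axons, was at 37.3, 35.1 and 42.2 CPM. The sodium-activated Slo genes Kcnt1 and Kcnt2 were at 55.6 and 361 CPM after LPS, 56.4 and 369 CPM after poly(I:C) and 58.6 and 363 CPM after saline. The SK gene Kcnn2 was at 355, 340 and 372 CPM in the same order, whereas Kcnn4, an SK relative of blood and immune cells, had 5 UMIs after LPS, 2 after poly(I:C) and 0 after saline. The 0 of saline allows up to 0.0844 CPM, and the 5 LPS UMIs were 0.168 CPM with an interval of 0.0545 to 0.392. Kcnh7, an ERG-type channel, was at 1416, 1512 and 1426 CPM.

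A list of 23 partners of these channels (pump subunits, cotransporters, HCN channels, auxiliary and sulfonylurea receptor subunits) gave 0 higher and 3 lower of 21 tested after LPS against saline, and 0 and 1 of 21 after poly(I:C). Over all genes 3.97% were higher and 2.93% lower after LPS, and 2.84% and 5.58% after poly(I:C). The lower ones after LPS were Abcc9, the vascular sulfonylurea receptor that joins Kcnj8, with 223 UMIs after LPS and 464 after saline (ratio 0.574, 0.487 to 0.675), the HCN channel Hcn3 (0.666) and the BK gamma subunit Lrrc38 (0.388). Lrrc38 was also the lower one after poly(I:C), with 10 UMIs against 40 after saline. Abcc9 was at a ratio of 0.958 between poly(I:C) and saline. Between LPS and poly(I:C) 1 of 20 partners was higher, the pump subunit Atp1b2 (377 UMIs after LPS and 171 after poly(I:C), ratio 1.58), and 1 was lower, Abcc9 (0.599), against 4.65% and 1.99% of all genes.

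Kcnip2 was higher after both treatments, though under the 1.5-fold rule over all barcodes. It had 2213 UMIs after LPS (74.4 CPM), 1731 after poly(I:C) (81.1 CPM) and 2121 after saline (59.7 CPM), ratios to saline of 1.25 (1.17 to 1.32) and 1.36 (1.28 to 1.45). Over gated neurons these ratios were 1.34 (1.23 to 1.46) and 1.44 (1.30 to 1.59). Kcnip2 encodes a KChIP that raises surface Kv4 channels and slows their inactivation. Its Kv4 partner Kcnd2 was at ratios of 1.02 and 1.03, and Kcnd3 at 0.885 and 0.900.

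Within classes, Kcnip2 was above saline after LPS in 8 of 9 classes with 30 UMIs, and the interval lay above 1 in 4 of them. In layer-6 type neurons it was at 90.7 CPM after LPS and 93.7 CPM after poly(I:C), against 66.1 CPM after saline, ratios of 1.37 (1.21 to 1.56) and 1.42 (1.23 to 1.64). In Vip/Adarb2 interneurons it was at 75.4 and 56.5 CPM, against 42.8 CPM after saline, and in Drd2 striatal neurons at 262 and 242 CPM, against 168 CPM. Syt2/Btbd11 interneurons went the other way between the treatments, at 60.5 CPM after LPS and 126 CPM after poly(I:C), against 81.8 CPM after saline. After poly(I:C) all 7 classes with 30 UMIs were above saline, with the interval above 1 in 2, and Rorb neurons were highest at a ratio of 2.86 (1.83 to 4.54; 145 CPM against 50.7 CPM). In the Il1rapl2/Etv1 class the levels were 44.2, 41.6 and 41.0 CPM after LPS, poly(I:C) and saline, ratios to saline of 1.08 (0.839 to 1.39) and 1.02 (0.749 to 1.37).

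**Figure D4:**
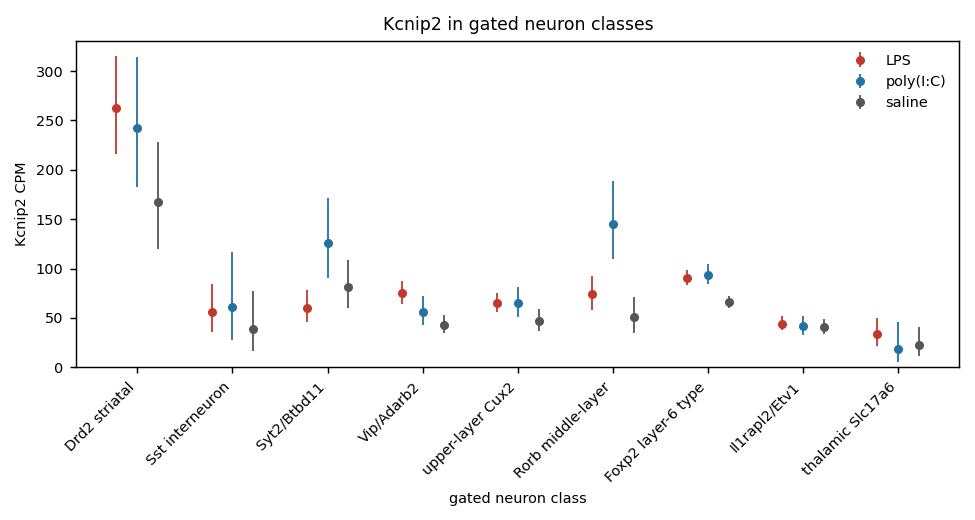
Points are Kcnip2 CPM in 9 gated neuron classes after LPS (red), poly(I:C) (blue) and saline (grey), and bars are exact 95% Poisson intervals. Drd2 striatal neurons are highest in every library, saline lies lowest in 7 of the 9 classes, and Syt2/Btbd11 interneurons after LPS and thalamic neurons after poly(I:C) lie under saline.

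Few members kept to 1 side of saline across classes, by a rule added after the Kcnip2 and Kcnma1 values had been seen. Among members measured in at least 7 classes, 1 of 34 (Kcnip2) was above saline after LPS in all classes but at most 1, against 4.27% of all such genes, and 4 (Kcna4, Kcnj9, Kcnma1 and Kcnn3) were below, against 9.76%. After poly(I:C) 2 of 30, Kcnip2 among them, were above, against 5.94%, and 2 (Kcna6 and Kcnn3) were below, against 10.4%. Between LPS and poly(I:C), 0 of 32 were above, against 6.48%, and 1 (Kcnh7) was below, against 5.76%.

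Kcnma1, the BK channel that couples calcium entry to fast spike repolarisation, was below saline after LPS in 11 of 12 classes, with the interval below 1 in 9. In upper-layer neurons it was at 2012 CPM after LPS and 2340 CPM after poly(I:C), against 2407 CPM after saline, and in Vip/Adarb2 interneurons at 1009 and 977 CPM, against 1251 CPM. The median ratio over the classes was 0.842 after LPS and 0.972 after poly(I:C). Thalamic neurons were the exception after LPS, at 2177 CPM against 2112 CPM. Kcnd3 was below saline after LPS in 9 of 11 classes, and in Drd2 striatal neurons it was at 176 CPM after LPS and 151 CPM after poly(I:C), against 348 CPM after saline. Kcnq5 was above saline after LPS in 8 of 12 classes with all 8 intervals above 1. It was below saline in oligodendrocytes, endothelial nuclei, Sst interneurons and thalamic neurons. In thalamic neurons it was at 645 CPM after LPS and 452 CPM after poly(I:C), against 806 CPM.

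The size rule within classes (at least 2-fold with an interval excluding 1) took 2 higher and 9 lower of 448 member and class pairs over 12 classes after LPS against saline, where 1.17% and 1.6% of all pairs of a gene and a class passed. After poly(I:C) against saline it took 7 higher and 5 lower of 369 pairs over 11 classes, against 1.22% and 2.23%. Between LPS and poly(I:C) it took 2 higher and 12 lower of 401, against 1.4% and 1.38%. Of these 12 lower pairs, 9 were in oligodendrocytes and endothelial nuclei. Lower pairs of all genes were frequent in these classes too, with 216 in oligodendrocytes and 214 in endothelial nuclei out of 925.

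Among the neurons, the pairs past the rule were spread over classes and genes. After LPS, Kcnip1 was lower in upper-layer neurons (74 UMIs after LPS, 85 after saline, ratio 0.493) and in Rorb neurons (23 and 31 UMIs, 0.496), both classes where its level is low. Kcnmb4, the neuronal BK beta subunit, was lower in Rorb neurons at 17 UMIs against 34 (0.334), Kcns3 in the Il1rapl2/Etv1 class at 8 against 33 (0.209), Kcne2 in Sst interneurons at 32 against 34 (0.472) and Kcnh2 in Vip/Adarb2 interneurons at 24 against 49 (0.449). The only neuronal pair higher after LPS was the silent subunit Kcng3 in layer-6 type neurons, with 43 UMIs after LPS and 20 after saline (ratio 2.04, 1.18 to 3.66). That was 1 of 62 members, against 0.401% of all genes in the class. Lower were 1 of 52 in upper-layer neurons (against 1.34%), 2 of 42 in Rorb neurons (1.04%) and 1 of 55 in the Il1rapl2/Etv1 class (1.11%). In Sst interneurons it was 1 of 27 (1.36%) and in Vip/Adarb2 interneurons 1 of 53 (0.888%).

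After poly(I:C), Drd2 striatal neurons held 1 higher and 2 lower pairs of 25, where 0.856% and 3.91% of all genes measured in them passed. Kcna1 was higher at 31 UMIs against 14 after saline (2.28), and Kcnd3 and Kcnc2 were lower at 35 against 83 (0.435) and 51 against 118 (0.446). In Sst interneurons Kcnh5 was higher at 32 UMIs against 18 (2.47) and Kcne2 lower at 8 against 34 (0.327), so Kcne2 was under its saline level there after both treatments. In Syt2/Btbd11 neurons Kcnmb2, a BK beta subunit, was higher at 19 against 16 UMIs (2.15). Kcnip2 in Rorb neurons, described above, was the highest neuronal ratio, and Kcnh8 in the Il1rapl2/Etv1 class was lower at 12 against 47 UMIs (0.392). These pairs rest on few UMIs and most have a wide interval. In Sst interneurons 1 higher and 1 lower of 18 members passed, against 1.02% and 1.69% of all genes. In Syt2/Btbd11 interneurons it was 1 and 1 of 31, against 0.677% and 1.54%. Rorb neurons had 1 of 36 higher, against 0.754%, and the Il1rapl2/Etv1 class 1 of 52 lower, against 1.86%.

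Between LPS and poly(I:C), 4 neuronal pairs passed. Kcnh8 in the Il1rapl2/Etv1 class was higher after LPS, at 71 UMIs against 12 after poly(I:C) (ratio 3.32, 1.79 to 6.73). Kcnip2 was lower after LPS in Syt2/Btbd11 neurons (0.480), Kcnmb4 in Rorb neurons (0.449) and Kcnh6 in layer-6 type neurons (0.489). Kcnh8 was 1 of 51 members tested in its class, against 0.88% of all genes higher there. The lower ones were 1 of 36 in Syt2/Btbd11 neurons (against 0.499%), 1 of 39 in Rorb neurons (0.795%) and 1 of 60 in layer-6 type neurons (0.907%).

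**Figure D5:**
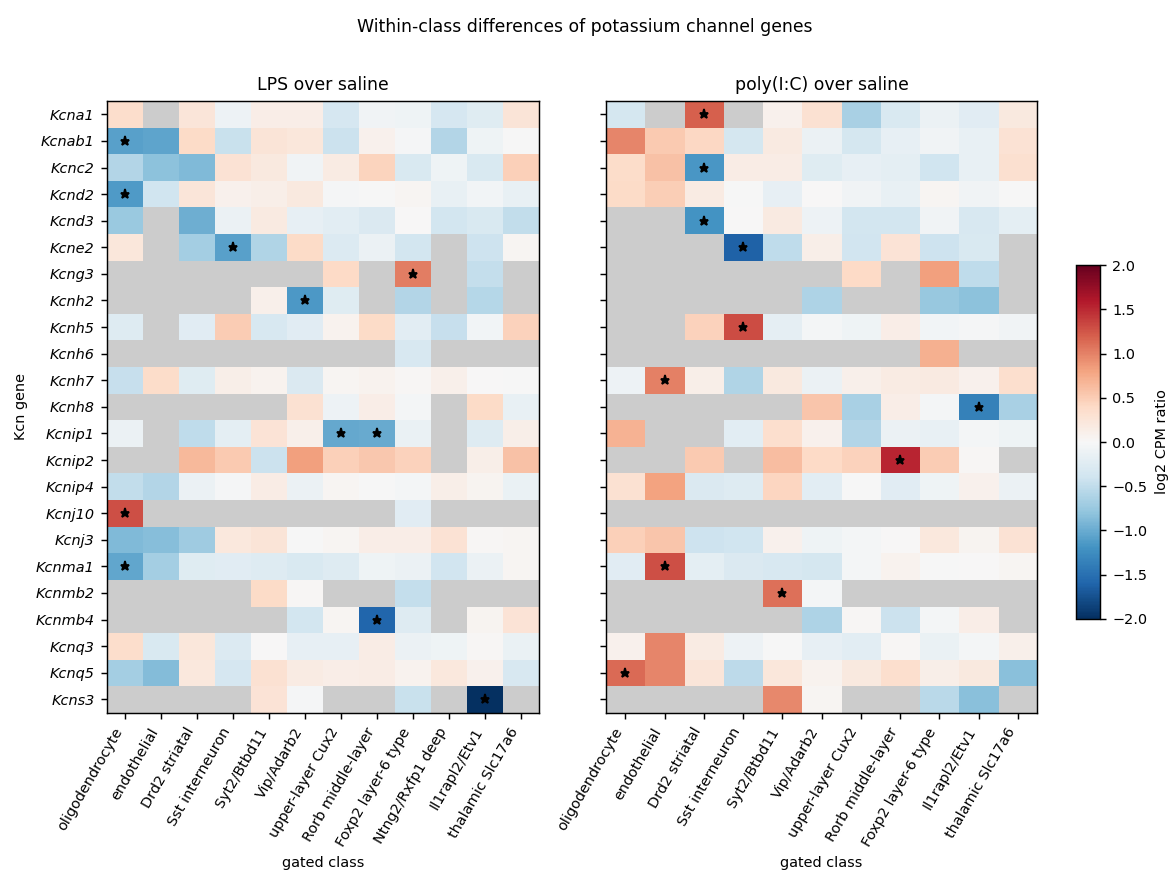
Colour is the log2 CPM ratio of LPS over saline (left) and poly(I:C) over saline (right) for the Kcn genes that passed the size rule in any class, stars mark pairs that passed it, and grey cells had under 30 UMIs. Oligodendrocyte and endothelial columns are mostly blue after LPS and red after poly(I:C), neuron columns are pale, and Kcnip2 is red in most neuron classes.

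In oligodendrocytes 1 of 20 members was higher after LPS than after saline and 3 were lower, where 3.45% and 3.82% of all genes measured in the class passed. The higher member was Kcnj10. Kcnj10 had 47 UMIs after LPS (106 CPM), 1 after poly(I:C) (17.1 CPM) and 6 after saline (43.6 CPM), and the ratio of LPS to saline was 2.43 (1.04 to 6.96). Kcnd2 (ratio 0.455), Kcnab1 (0.471) and Kcnma1 (0.486) were lower after LPS than after saline, and the median log2 ratio over 20 members was -0.48, against 0.07 over all genes of the class. After poly(I:C) 1 of 13 members was higher and 0 were lower than after saline, against 2.82% of all genes in either direction. That member was Kcnq5, at 79 UMIs against 85 after saline (2.19, 1.59 to 3.00), and the median over 13 members was 0.30, against -0.03 over all genes. Set against poly(I:C), LPS oligodendrocytes had 1 higher and 4 lower of 19 members, against 4.06% and 6.36% of all genes. Kcnj10 was the higher one, with 47 UMIs against 1 and a ratio of 6.21 (1.06 to 250.2). The lower ones were Kcnab1 (0.239), Kcnq5 (0.286), Kcnd2 (0.348) and Kcnj3, a G protein-gated Kir channel (0.390).

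Endothelial nuclei showed the same order of libraries in their members' medians. The median log2 ratio was -0.63 over 10 members after LPS against saline, where all genes were at -0.04, and 0.70 over 10 members after poly(I:C), where all genes were at -0.15. After LPS 0 of 10 members passed the size rule against saline, against 11.7% of all genes higher and 9.22% lower. After poly(I:C) 2 of 10 were higher and 0 lower, against 13.2% and 14.9%. Kcnma1 was higher at 42 UMIs against 40 after saline (2.45) and Kcnh7 at 25 against 29 (2.01). Against poly(I:C), LPS endothelial nuclei had 5 of 7 members lower and 0 higher, against 11.4% and 8.49% of all genes. The lower ones were Kcnma1 (0.255), Kcnq5 (0.279), Kcnc2 (0.375), Kcnip4 (0.379) and Kcnq3 (0.414).

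A list of neuronal genes moved with these results in both classes. Its 5 members with a symbol (Cadps, Syn1, Stmn2, Ryr2 and Grin2b) summed to 810 CPM in LPS, 1573 CPM in poly(I:C) and 1410 CPM in saline oligodendrocytes, and to 319, 956 and 547 CPM in endothelial nuclei. In gated neurons the list was at 4362, 4353 and 4436 CPM. The oligodendrocyte markers ran the other way, at 7301 CPM in LPS, 5317 CPM in poly(I:C) and 6216 CPM in saline oligodendrocytes, and so did the endothelial markers, at 7786, 6083 and 6823 CPM in endothelial nuclei. A list of 7 neutrophil genes summed in endothelial nuclei to 1814 CPM after LPS, 310 CPM after poly(I:C) and 10.6 CPM after saline. It includes Lcn2, also an acute phase gene, and was not split by gene, so the sum need not be neutrophil RNA alone. The red cell list, of which 1 gene had a symbol, was in endothelial nuclei at 2551, 2135 and 4394 CPM. In oligodendrocytes these lists were at or under 49.7 CPM in every library. The part of neuronal, neutrophil or red cell RNA in these ratios was not tested. Other scalings moved all ratios of these classes by up to 0.26 in log2.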

How the data were processed

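Per the labels, nuclei were isolated from pooled whole rat brains and sequenced as droplet libraries. The deposited values are raw UMI counts per gene and barcode, and per the submitters' processing notes the authors used Cell Ranger 7.0.0 and the genome build mRatBN7.2. No barcode was removed from the sums over all barcodes, and no symbol was shared by several Kcn features.

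Only barcodes in which 500 genes or more were detected, and whose mitochondrial share was 5% or less, entered classes. A non-neuronal class needed at least 3 UMIs from at least 2 of its markers, more than from any other non-neuronal list or any neuronal class's own markers, and fewer pan-neuronal UMIs than marker UMIs. A neuronal class needed at least 2 UMIs of its own markers and at least 1 of its transmitter panel where it has one. It also needed at least 1 pan-neuronal UMI, fewer UMIs of the opposing panel, and more own-marker UMIs than any other neuronal class. Barcodes that met both kinds of gate or tied were left unassigned. Doublets were not removed in the values reported. Scrublet (in scanpy 1.11.5) at its automatic threshold called 0 LPS, 703 poly(I:C) and 0 saline nuclei, so the alternative without doublets left out the highest scores at an expected 0.8% per 1000 nuclei (879, 1376 and 3644 nuclei).

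Counts were summed per library or per class and library and divided by the total (CPM). Ratios of CPM have exact conditional 95% intervals, levels have exact Poisson intervals, and both cover counting error only. A gene was compared with at least 30 UMIs over both libraries, and called at 1.5-fold over all barcodes or 2-fold within a class, with the interval excluding 1. Classes needed at least 50 nuclei in both libraries. The upper limit of a count of 0 was taken as 3 counts. The ratio and its interval were tested on simulated data with known fold changes.

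Genes named are up to 10 a direction past the 1.5-fold rule, up to 5 a direction and class past the 2-fold rule, up to 5 class-marking members per class in the saline library, a list of well-known channels and a list of partners. Members, marker lists and gene lists were chosen with earlier results of these data known. The single-gene values beyond this rule (such as Kcnrg and the glial and vascular examples) were chosen after their values were seen. Alternatives were TMM (edgeR 4.0.16, R 4.3.3) and median-of-ratios scaling, other UMI minimums, barcode and gate filters, a depth band of 1000 to 3000 UMIs, doublets left out, 5% free RNA subtracted, and gated neurons alone. Sums and intervals used Python 3.11.15, numpy 2.4.6, scipy 1.17.1 and pandas 2.3.3, and figures matplotlib 3.10.9. Promoter sequences are from RefSeq (GRCr8). Some members are included in the counts but not reported by name here, and they were left out of the figures.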

Additional observations from a re-analysis of the deposited data

Results flagged for a closer look

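In some classes with under 50 nuclei in a library, which were left out of the comparisons, members passed the 2-fold rule above saline. Kcnip4 in differentiating oligodendrocytes was at a ratio of 2.17 after LPS, from 62 LPS and 35 saline nuclei. Kcnab1 in mural nuclei was at 2.07 after LPS, and in Drd1 striatal neurons it was at 2.40 after poly(I:C). Lower pairs were more frequent in these classes. With 10 nuclei or more in both libraries, 2 pairs were higher and 12 lower of 83 after LPS, against 5.63% and 6.47% of all pairs of a gene and a class, and 1 was higher and 3 lower of 51 after poly(I:C), against 3.42% and 4.18%. Among the lower ones, Kcnip4 in astrocytes had 133 UMIs in 154 LPS nuclei and 154 in 22 saline nuclei (ratio 0.135), and in oligodendrocyte precursors 54 UMIs in 61 and 55 in 14 (ratio 0.230). The neuronal gene list moved with it in astrocytes, at 950 CPM after LPS and 2415 CPM after saline, and was at 1481 and 1642 CPM in precursors. Its part was not tested.

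Some members moved in opposite directions in different classes of the same comparison, and the differences between the classes were not tested. In poly(I:C) against saline, Kcna1 was at 2.28 in Drd2 striatal and 0.637 in upper-layer neurons, Kcnh7 at 2.01 in endothelial nuclei and 0.656 in Sst interneurons, and Kcnq5 at 2.19 in oligodendrocytes and 0.561 in thalamic neurons. In LPS against poly(I:C), Kcnc2 was at 0.375 in endothelial nuclei and 1.56 in Rorb neurons, and Kcnj3 at 0.390 in oligodendrocytes and 1.53 in Sst interneurons. The size asked for here (2-fold in one class, 1.5-fold the other way in another) was tightened after values were seen.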

How the results depend on the processing

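Single libraries of pooled animals limit every comparison, and members with few UMIs have wide intervals. No paired analysis was possible because each treatment is 1 library. For summaries over the members, 92 values under the alternatives stayed within 1.5 times the count (or within 0.1 log2 of the median) and 37 did not; for single genes 326 stayed inside the interval of the value reported, 10 did not and 2 turned round. Scaling shifted ratios over all barcodes by at most 0.08 log2 and those within classes by -0.23 to 0.26, with both ends in oligodendrocytes. The cause of each change below was not tested, but gate and depth filters also left fewer classes (7 to 9, against 11 or 12) and fewer pairs (272 to 378, against 369 to 448) to count. The gated-neuron alternative and the doublet threshold were chosen after seeing the data.

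Over all barcodes, LPS against saline (2 higher, 3 lower) gave 1 lower with median-of-ratios scaling, 0 higher without doublets, and 1 higher and 1 lower in gated neurons, and Kcnj8 turned to 1.36 in the 1000 to 3000 UMI band. Poly(I:C) against saline (0 and 2) gave 4 lower in barcodes of at least 500 genes and 1 lower in gated neurons. In gated neurons the lower member was Kcnj10 after either treatment. It had 36 UMIs after LPS and 20 after poly(I:C), against 59 after saline (ratios 0.492 and 0.566). Kcnf1 and Kcnn1 did not pass there after poly(I:C), at 0.629 (0.384 to 1) and 0.770 (0.482 to 1.20). LPS against poly(I:C) (1 and 0) gave 3 higher with at least 500 genes, 3 higher without doublets, 6 higher and 3 lower in the UMI band, and 0 higher and 1 lower in gated neurons, where Kcnj10 turned to 0.869.

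Within classes, LPS against saline (2 and 9) gave 5 lower with median-of-ratios scaling and with the stricter gate, 14 lower with at least 1 UMI in each library, 1 higher and 14 lower without doublets, 1 higher with at least 1000 genes and 16 lower with free RNA subtracted. Poly(I:C) against saline (7 and 5) gave 10 lower with at least 10 UMIs or at least 1 UMI each, 3 and 3 with at least 1000 genes, 1 lower without doublets, 1 and 1 with the stricter gate, 2 and 3 in the UMI band, and 11 higher with free RNA subtracted. LPS against poly(I:C) (2 and 12) gave 5 and 19 with at least 10 UMIs, 20 lower with at least 1 UMI each, 4 lower with at least 1000 genes, 1 and 6 with the stricter gate and 7 lower in the UMI band. The 48 class-marking pairs of the saline library became 28 with the stricter gate.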
